A study of Mus musculus with 6 samples.

Results

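The tissue inhibitors of metalloproteinases (TIMPs) were followed through the RNA contact maps of Quaking (Qk) proteins in C2C12 myoblasts. Members were all peaks listed under the gene IDs of Timp1 (ENSMUSG00000001131), Timp2 (ENSMUSG00000017466) and Timp3 (ENSMUSG00000020044), 3 of the 8233 gene IDs with a peak in either list. The anti-PanQk list held 89 TIMP peaks of 22488, and the control list held 10 of 8496. Timp2 carried 85 of the 89 anti-PanQk peaks and all 10 control peaks. Timp1 and Timp3 carried 2 anti-PanQk peaks each, and neither had a control peak. The family was chosen by peak numbers from these same lists, in which Timp2 had the most anti-PanQk peaks free of control overlap of any gene ID, so the numbers are a description and none was tested.

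TIMPs are secreted proteins that block matrix metalloproteinases by inserting their N-terminal domain into the active site of the enzyme, and in muscle the proteinases they restrain remodel the matrix that myoblasts cross before they fuse. Timp1 is the member most readily induced by growth factors and cytokines, Timp2 both inhibits metalloproteinases and helps the membrane-bound enzyme Mmp14 to activate Mmp2, and Timp3 stays bound to the matrix and also inhibits proteinases of the ADAM and ADAMTS families. Quaking proteins are RNA-binding proteins of the STAR family that contact introns and the ends of mature transcripts and act in splicing, RNA stability and translation.

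The series holds 6 iCLIP libraries in 5 groups from C2C12 cells, a permanent line of mouse muscle precursors, with RNA fixed to protein in the cells by 400 mJ of ultraviolet light. Of these, 2 were analysed here, both from proliferating myoblasts: 1 library pulled down with an antibody against all Qk proteins (anti-PanQk) and 1 with an antibody against the HA tag, which served as the control. The anti-PanQk myotube libraries (2, after 72 h of differentiation) and the anti-Qk6 and anti-Qk7 myoblast libraries (1 each) were not analysed here. With 1 library per antibody there was no replicate, so differences between the lists are differences between 2 libraries. A change in how much a transcript was contacted cannot be told apart from a change in its abundance. The depth of the libraries is unknown, and both lists start at 3 reads per peak, so the lack of a listed peak says only that none of 3 reads or more was listed. Gene symbols of muscle markers could not be paired with the IDs in the files, so the myoblast label was not checked.

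Timp2 was among the gene IDs with the most listed anti-PanQk peaks. Its 85 anti-PanQk peaks were exceeded by 6 of the 7135 gene IDs in that list, while its 530 listed reads ranked 62nd. Joined over gaps of at most 50 nt the 85 peaks came to 14 groups, and no rank was computed for joined peaks. In the control list Timp2 had 10 peaks with 147 reads. As a share of all reads in listed intervals, each interval counted once, Timp2 took 0.264% (95% interval 0.242 to 0.287) of the anti-PanQk and 0.0979% (0.0827 to 0.115) of the control list. These intervals are exact Clopper-Pearson intervals and cover counting error only, and a read that reaches into neighbouring peaks may have been counted in each. By contrast, Timp1 and Timp3 lay in the body of the list: 1406 gene IDs (19.7% of 7135) had 2 anti-PanQk peaks and 2471 (34.6%) had more.

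**Figure D1:**
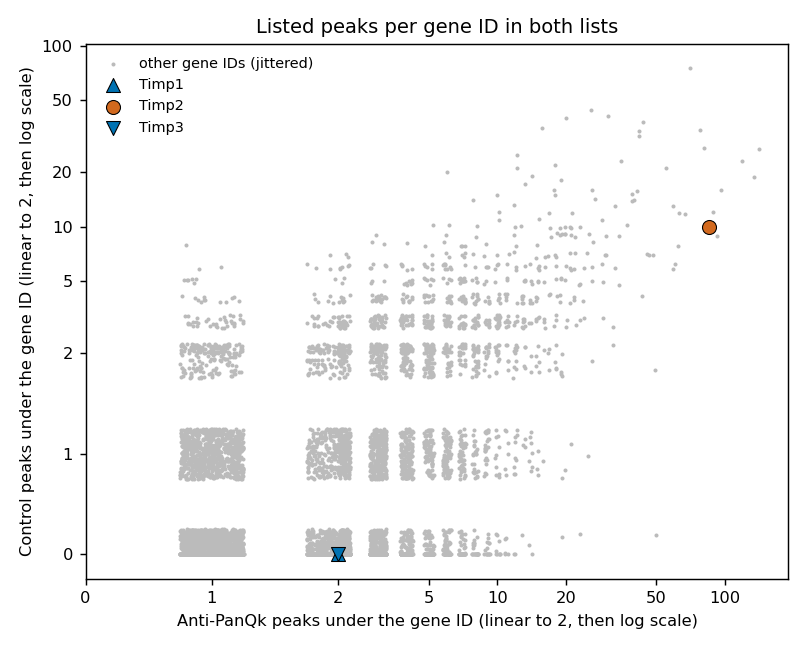
Listed peaks per gene ID, anti-PanQk on the horizontal and control on the vertical axis (both linear to 2 and logarithmic beyond), 1 grey point per gene ID in the anti-PanQk list. Timp2 lies at 85 and 10, and the markers of Timp1 and Timp3 coincide at 2 and 0.

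Of the 85 Timp2 anti-PanQk peaks, 63 had no overlapping control peak on the same strand (74.1%, 95% interval 63.5 to 83.0), against 86.0% over the whole list. A peak without such an overlap, by 1 nt or more, is called control-free here. The other 22 peaks overlapped a control peak, with a median of 7 reads and a highest of 34, against a median of 4 and a highest of 12 in the control-free peaks. Control-free and overlapped peaks held 310 and 220 of the 530 reads, so 25.9% of the peaks carried 41.5% of the reads. Over the whole list overlapped peaks carried 48.0% of the reads.

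The peaks of Timp2 were crowded at the downstream end of the transcript. They span 54220 nt on the minus strand of chromosome 11 (118162388 to 118216607, mm9), where the lower coordinate is downstream. Of the 85 anti-PanQk peaks, 83 (97.6%, 91.8 to 99.7) lay in the most downstream 10% of that stretch, and among the 88 gene IDs with at least 20 anti-PanQk peaks 3 had a higher share. The median of those 88 was 58.6%. Over all gene IDs, 39.7% of anti-PanQk peaks lay in the most downstream 10% of their stretch. For the 17915 peaks in stretches of 1000 nt or more the share was 47.4%. Only 2 Timp2 peaks lay further upstream: a peak of 6 reads at 118181447 to 118181524 and a peak of 12 reads at 118216511 to 118216607, the upstream limit of the stretch. The former stood 16368 nt upstream of the block and 34986 nt downstream of the latter, with no other anti-PanQk peak between. No other gene ID had a peak inside the stretch in either list, on either strand. Of the control peaks 8 of 10 lay in the downstream 10%, and the remaining 2 near the upstream limit. Exons, introns and untranslated regions were not assigned, since no mm9 annotation was used here.

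**Figure D2:**
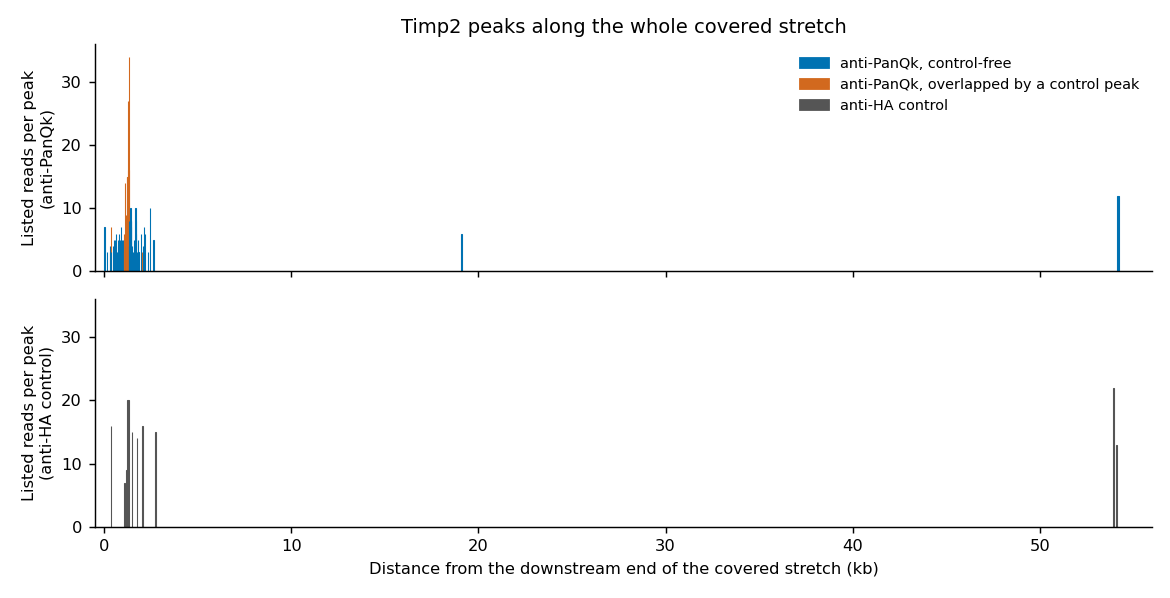
Listed reads per Timp2 peak (vertical axis) against distance in kb from the downstream end of the covered stretch, anti-PanQk above and anti-HA control below, with bar width equal to peak width. The 83 downstream anti-PanQk peaks form 1 block, with a lone peak of 6 reads and a peak of 12 reads far upstream, and the control has 2 peaks, of 22 and 13 reads, at the upstream limit.

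Within the downstream block the highest peaks stood together in 1 place. Peaks were joined into groups wherever at most 50 nt lay between them, which gave 14 groups. The largest, at 118163424 to 118164172, held 44 of the 85 peaks and 338 of the 530 reads (63.8%). Downstream of it, groups at 118162877 to 118163071 and 118163145 to 118163348 held 12 and 10 peaks with 44 and 48 reads. No peak in these 2 groups exceeded 7 reads, and none of the 22 was overlapped by a control peak. Overlap was uncommon for such weak peaks over all gene IDs: 2.72% at 3 reads, 7.54% at 4 or 5 and 19.4% at 6 to 9. The other 11 groups held 1 to 4 peaks each, and 7 of them were a single peak. Reads per covered nucleotide were 1.10 in the largest group and 0.733 and 0.676 in the 2 groups downstream of it. Upstream of it they were 0.889, 0.900 and 0.909 in groups of 2, 2 and 4 peaks and 1.11 in a lone peak of 10 reads. The other lone peaks upstream had 0.750, 0.109, 0.0769 and 0.124. By this density the largest group thus led the groups of more than 1 peak, and 1 lone peak slightly exceeded it. The density depends on how narrowly peaks were cut: the values 0.109, 0.0769 and 0.124 belong to peaks of 46, 78 and 97 nt.

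At this summit the control also had peaks. The strongest anti-PanQk peak held 34 reads at 118163701 to 118163714 (exact Poisson 95% interval 23.5 to 47.5), followed by 27 reads (17.8 to 39.3) at 118163673 to 118163683. Next came 16 reads at 118163696 to 118163700 and 15 reads each at 118163617 to 118163626, 118163630 to 118163649 and 118163662 to 118163669. All 7 Timp2 peaks of more than 12 reads lay between 118163459 and 118163714, a span of 256 nt, and all 7 were overlapped. Along this span the control list had 3 peaks end to end or nearly so, with 7 reads at 118163459 to 118163534, 9 at 118163553 to 118163633 and 20 at 118163634 to 118163714. Together these 3 control peaks held 36 reads, and the 20 anti-PanQk peaks that overlapped them held 210. They made up 24.5% of the control and 39.6% of the anti-PanQk reads of Timp2. The single control-free anti-PanQk peak in the span had 4 reads.

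**Figure D3:**
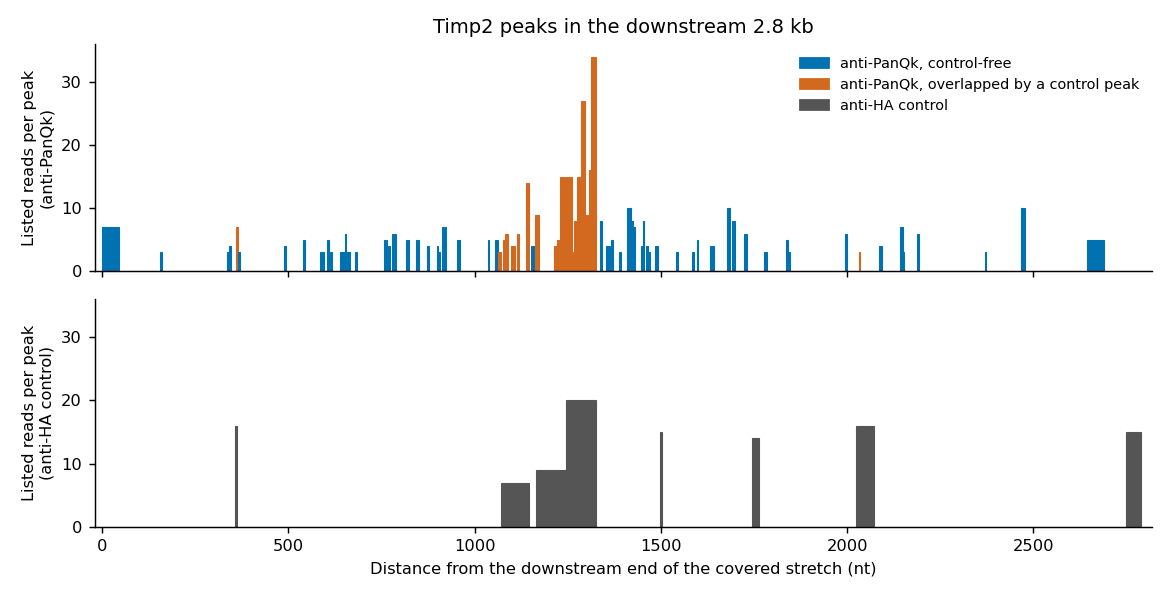
Listed reads per Timp2 peak (vertical axis) against distance in nt from the downstream end, for the downstream 2.8 kb, anti-PanQk above (blue, control-free; orange, overlapped) and anti-HA control below, with bar width equal to peak width. The orange bars rise to 34 reads over the 3 adjoining control peaks of 7, 9 and 20 reads, and the blue bars on both sides stay at or below 10 reads.

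Elsewhere most control peaks of Timp2 lay near an anti-PanQk peak without overlapping it. The other 7 control peaks had 13 to 22 reads each, 111 in all, and 2 of them overlapped an anti-PanQk peak. One of those, 16 control reads at 118162746 to 118162750, met an anti-PanQk peak of 7 reads, and the other, 16 reads at 118164413 to 118164460, met a peak of 3 reads. Control peaks of 15 reads at 118163885 to 118163890 and 14 reads at 118164132 to 118164150 lay 5 and 12 nt from an anti-PanQk peak without overlap, and a control peak of 15 reads at 118165136 to 118165177 lay 57 nt away. The highest control peak of the gene, 22 reads at 118216286 to 118216308, stood 202 nt downstream of the only anti-PanQk peak at the upstream limit. A second control peak there, 13 reads at 118216453 to 118216497, ended 13 nt short of it. In all, 5 of 10 Timp2 control peaks (50.0%, 18.7 to 81.3) were overlapped by an anti-PanQk peak, against 29.5% of all control peaks.

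Control-free signal was present on both sides of the summit and was weak everywhere. The highest control-free peak was the one of 12 reads at the upstream limit. Then came 3 peaks of 10 reads, at 118163796 to 118163808, 118164065 to 118164072 and 118164856 to 118164864, which lay 76, 59 and 271 nt from the nearest control peak. After them, 4 peaks had 8 reads, at 118163724 to 118163729, 118163809 to 118163813, 118163839 to 118163842 and 118164080 to 118164087. The peak at 118164856 to 118164864 was the strongest control-free peak more than 100 nt from any control peak, and 29 of the 63 (46.0%) lay that far away, against 90.9% of control-free peaks over all gene IDs. Control-free peaks had a deposited p-value of at most 1e-06 in 4 of 63 cases, against 12.4% of control-free peaks over all gene IDs. Among the 22 overlapped peaks 9 had such a p-value, against 62.3% of overlapped peaks over all gene IDs. Counted in windows of 100 nt from the downstream end, 24 of 28 windows held an anti-PanQk peak or part of one, and into 15 of these no control peak reached. Windows were not counted for other gene IDs, so the 15 have no background value beside them. Timp2 also had far fewer control than anti-PanQk peaks to fill windows.

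Overlap with the control rose with the reads of the peak, at Timp2 as over the whole list. At 3 reads 3 of 23 Timp2 peaks were overlapped (13.0%, 2.78 to 33.6), and at 4 or 5 reads 5 of 30 (16.7%, 5.64 to 34.7). At 6 to 9 reads it was 7 of 21 (33.3%, 14.6 to 57.0), and at 10 or more reads 7 of 11 (63.6%, 30.8 to 89.1). Over all gene IDs the shares were 2.72%, 7.54%, 19.4% and 47.9% in the same order. Peaks of 1 gene are neighbours and not independent, and no difference between Timp2 and the list was tested. Timp2 also had fewer peaks at the lowest level, with 23 of 85 (27.1%) at 3 reads against 43.6% over the list.

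**Figure D4:**
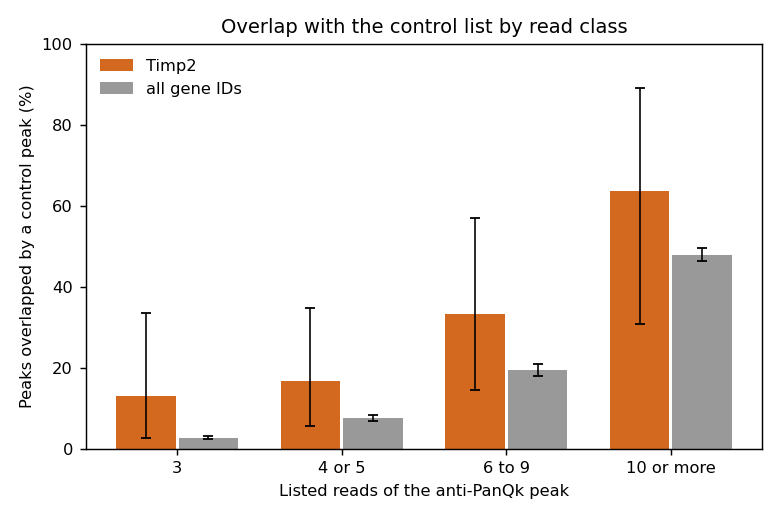
Share of anti-PanQk peaks overlapped by a control peak (vertical axis, percent) by listed reads of the peak, for Timp2 (orange; 23, 30, 21 and 11 peaks) and all gene IDs (grey), with exact 95% intervals as error bars. Both sets of bars rise from left to right, to 63.6% and 47.9% at 10 or more reads.

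The Timp2 peaks were narrow and packed closely. Their median width was 6 nt (quartiles 4 and 8), against 32 nt (10 and 45) for all anti-PanQk peaks and 43.5 nt for the 10 Timp2 control peaks. Of the 84 gaps between neighbouring Timp2 peaks 24 were 0 nt, and 44 were at most 10 nt. Width split sharply by place. The 81 peaks between 118162544 and 118164864 measured 2 to 20 nt, whereas the 4 outside that interval measured 45 to 97 nt, and these 4 included both lone upstream peaks. On the summit a control peak of 81 nt and 20 reads corresponded to 9 anti-PanQk peaks, which covered 88.9% of it and held 134 reads. Counted as groups joined over 50 nt, the 85 peaks came to 14, of which 3 held a control peak and 11 did not. The 3 with a control peak held 4, 44 and 2 anti-PanQk peaks with 17, 338 and 9 reads, and 7 of the 11 were a single peak. The number of groups without a control peak is thus no measure of the control-free signal. Its share over all gene IDs was not computed. Peak names carry a running number within the gene, which reached 433 for Timp2 in the anti-PanQk list, the highest of all 7135 IDs. Of that number 19.6% was listed, the lowest share among the 88 gene IDs with at least 20 anti-PanQk peaks (median 69.8%). In the control list the number reached 27.

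Such narrow peaks were shared by other peak-rich transcripts. Among the 88 gene IDs with at least 20 anti-PanQk peaks, the median width was 4 to 7 nt in 20 IDs, Timp2 included, and 10 to 59.5 nt in the other 68. Of the 10 IDs with at least 70 peaks, Timp2 had the lowest median read number, 5, equal with 1 other, and the highest control-free share. That share is tied to its number of control-free peaks, which was known when the family was picked. Among the 88 IDs, 43 had a higher control-free share than Timp2. The median control-free share was 37.8% in the 20 IDs with narrow peaks and 84.0% in the 68 others. The files do not name these genes.

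**Figure D5:**
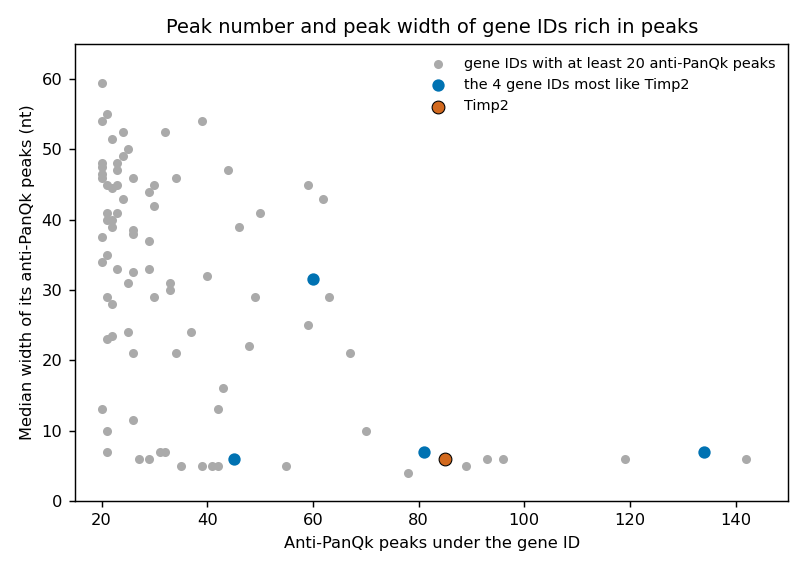
Median width in nt of the anti-PanQk peaks of a gene ID (vertical axis) against their number, for the 88 gene IDs with at least 20 such peaks. Timp2, with 85 peaks and 6 nt, lies in the band of 20 IDs at 4 to 7 nt, as do 3 of the 4 IDs most like it.

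The gene IDs most like Timp2 were found by the summed difference in percentile rank over 4 measures (number of anti-PanQk peaks, control-free share, share in the downstream 10% and median reads), among the 88 IDs and from these 2 libraries alone. The nearest was ENSMUSG00000031207 on the plus strand of the X chromosome (93291456 to 93363888), with a distance of 0.381, 134 peaks and 38.1% control-free. Next was ENSMUSG00000022565 on the minus strand of chromosome 15 (76001426 to 76035937), with a distance of 0.5, 81 peaks and 50.6% control-free. Then followed ENSMUSG00000058013 on chromosome 5 (distance 0.625; 60 peaks, 90.0% control-free) and ENSMUSG00000042079 on chromosome 6 (distance 0.693; 45 peaks, 44.4% control-free). All 4 had at least 93.3% of their anti-PanQk peaks in the downstream 10% of their stretch. That share was 1 of the 4 measures they were chosen by, so its likeness to Timp2 is no separate result. Their strongest peaks held 129, 87, 28 and 48 reads, against 34 for Timp2.

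Timp1, the inducible inhibitor, had 2 weak anti-PanQk peaks on the plus strand of the X chromosome. The upstream peak held 5 reads over 39 nt at 20448178 to 20448216 (exact Poisson 95% interval 1.62 to 11.7; deposited p = 0.000644), and the downstream peak held 3 reads over 9 nt at 20451785 to 20451793 (0.619 to 8.77; deposited p = 0.0192). They lay 3568 nt apart. The nearest control peak on that strand was 174447 nt away. Timp1 is known to lie within an intron of the synapsin gene Syn1, on the opposite strand, and a minus-strand ID, ENSMUSG00000037217, did have peaks on either side: anti-PanQk peaks of 3 reads at 20438746 to 20438786 and at 20471752 to 20471781 and a control peak of 18 reads at 20438054 to 20438096. The files do not name that ID. None of its peaks overlapped those of Timp1.

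Timp3, the matrix-bound inhibitor, had 2 peaks at the lowest listed level on the plus strand of chromosome 10. Each held 3 reads, over 38 nt at 85775246 to 85775283 and over 10 nt at 85811675 to 85811684, 36391 nt further downstream. The p-values deposited for them were 0.0200 and 0.0193. No other gene ID had a peak of either list within 50000 nt on either strand. The nearest control peaks on the plus strand lay 1893810 and 1857409 nt away. Running numbers reached 6 for Timp3 and 2 for Timp1.

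The listed signal of Timp1 and Timp3 thus amounted to 8 and 6 reads, against 530 for Timp2, in reads per gene that were not scaled for transcript length or abundance. Being free of control peaks was common for IDs of that kind: of the 1406 IDs with 2 anti-PanQk peaks, 773 (55.0%) had no control peak, as had 3736 of all 7135 (52.4%). Of those 773, 591 (76.5%) had no peak of more than 5 reads, as Timp1 and Timp3 had none. Neither had a peak with p at most 1e-06, which 19.4% of all anti-PanQk peaks reached. With at least 5 reads required, Timp1 kept 1 peak and Timp3 none, and with p at most 1e-06 both had 0.

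At Timp2 the number of control-free peaks depended on the limits set. It was 5 of 13 peaks (38.5%) with p at most 1e-06 in both lists, against 68.3% over all gene IDs. With at least 5 reads it was 30 of 47 peaks, against 74.4% over all gene IDs. When a control peak within 100 nt counted as overlapping it was 29 of 85 (34.1%), against 78.2% over all gene IDs. The share of its peaks in the downstream 10% was 92.3% of the 13 at p at most 1e-06 and 95.7% of the 47 with at least 5 reads. Under these limits the downstream share over all gene IDs was not computed.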

How the data were processed

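Both peak lists were made by the authors with CLIPper on 1 library each on mm9, per the file headers. Bowtie2 and TopHat appear in the submitters' processing notes, without versions. Each p-value printed was deposited by the authors. Reads per peak were read from the end of the deposited peak names, a meaning that no header states. Lists were matched to libraries by the library name in the track line.

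Peaks of the 3 members were taken by gene ID (their symbols came with the member list and could not be checked in the files), and overlap was counted on the same strand from 1 nt. Coordinates are 1-based. Python 3.11.15, pandas 2.3.3, numpy 2.4.6 and scipy 1.17.1 were used. The overlap code was tested on control peaks left in place or moved to where no control peak lies. The joining of peaks was tested on simulated peaks. Strand matching was not tested separately. Shares have Clopper-Pearson and read numbers Poisson intervals, and no test was run. Members and lists were chosen with earlier results of these data known. For Timp2, the 8 control-free and 5 overlapped peaks with most reads (and 1 tied with the last) and all control peaks are named. Planned motif, pathway and marker lists were not used, since no mm9 genome and no table pairing symbols with IDs was at hand. Alternatives varied the p-value limit, overlap rule, list length, read minimum and joining of peaks.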

Additional observations from a re-analysis of the deposited data

How the results depend on the processing

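With p at most 1e-06 the anti-PanQk peaks of Timp2 fell from 85 to 13 and the control-free ones from 63 to 5 (38.5%), with a median of 14 reads against 5, and Timp1 and Timp3 had 0. With equal list lengths, and likewise with at least 5 reads, Timp2 had 47 peaks with 30 control-free, Timp1 had 1 and Timp3 had 0, because fewer peaks were admitted, and the Timp2 peaks of at least 5 reads held 401 of its 530 reads (75.7%). Counting control peaks within 100 nt left 29 control-free Timp2 peaks (34.1%). Joining peaks within 50 nt gave 14 Timp2 peaks, 11 of them control-free, and 85.7% in the downstream 10% against 97.6%. Neither the control-free nor the downstream share over all gene IDs was computed for joined peaks. Gaps of 10, 20 and 100 nt gave 41, 30 and 9 groups in place of 14. Dropping the control peaks that held 10 to 26 reads, an alternative added once the data had been seen, Timp2 had 2 control peaks and 73 control-free peaks (85.9%). With control peaks removed, the control-free number could only rise or stay. The share over all gene IDs was not computed under this limit, so 85.9% has no background value beside it. Of 151 recomputed values 121 stayed near the reported one, counts and medians within 1.5 times it and shares within its 95% interval. Many of these could not have moved, such as peak numbers under another overlap rule and the absent control peaks of Timp1 and Timp3. The tally is therefore no measure of stability. The control-free count of Timp2 moved with the p-value limit, the 100 nt rule, equal list lengths, the 5-read minimum and joining. No share could be given for Timp1 or Timp3 where no peak was left. No paired analysis was possible because both antibodies compared had 1 library, and for the same reason no library could be left out.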
